A study of Homo sapiens with 6 samples.

Results

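The kallikrein locus of chromosome 19 was read out in LNCaP parental and PACT KO cells through 10 of its genes, *KLK1*, *KLK2*, *KLK3*, *KLK4*, *KLK5*, *KLK10*, *KLK11*, *KLK12*, *KLK14* and *KLK15*, chosen by name and found by NCBI Gene number among the 29806 gene numbers of the deposited counts. Transcripts of *KLK3*, which encodes prostate-specific antigen (PSA), fell 5.66-fold in PACT KO, those of *KLK2* fell 1.79-fold, and those of *KLK4*, the most abundant of the 10, fell 1.39-fold. *KLK14* and *KLK15* were detected with few reads (16 to 46 per library) and did not pass the test. The other 5 genes had at most 2 reads in any library.

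Kallikreins are secreted serine proteases made as inactive precursors, and their genes lie side by side in a single cluster. In the prostate epithelium, KLK2, KLK3 and KLK4 are released into seminal fluid, where KLK2 and KLK4 can activate the PSA precursor and PSA cleaves the semenogelins of the seminal clot. *KLK2*, *KLK3* and *KLK4* are known to be regulated by steroid hormone in the prostate, whereas *KLK5*, *KLK10* and *KLK12* are known mainly from other epithelia such as the epidermis.

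LNCaP cells come from a human prostate cancer, respond to steroid hormone and still make PSA. PACT KO is LNCaP in which *PRKRA*, the gene of the double-stranded RNA-binding protein PACT, was targeted with CRISPR-Cas9 from a plasmid that also carried GFP. All PACT KO libraries came from 1 clone grown from a sorted cell, and LNCaP parental cells were the comparison. Each group had 3 libraries from dishes seeded with 1000000 cells and collected 48 h later from serum-containing medium, and neither group received another treatment. The dishes are repeats of 1 culture each, so p-values measure the spread between dishes, and the effect of the knockout and of picking 1 clone cannot be told apart.

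PolyA RNA was sequenced, and 19930060 to 24940838 reads were counted on genes per library. *PRKRA* itself had 882, 809 and 866 reads in the LNCaP parental libraries and 291, 331 and 243 in PACT KO, a log2 fold change of -1.57 (SE 0.07, FDR 8.83e-21 by edgeR). Markers were counted as detected where every library had more than 3 reads. All 4 prostate luminal markers examined were detected, with a summed level of 2840 to 2876 CPM (counts per 1000000 reads on genes) in LNCaP parental against 2882 to 2944 in PACT KO. Of 3 basal markers 0 were detected, with *KRT5* at 0 and *KRT14* at 4 reads in 1 LNCaP parental library and at most 2 in the other 5 libraries. *CD68* was detected among 4 leukocyte genes, whose summed level was 2.22 to 2.51 CPM in LNCaP parental against 1.58 to 1.77 in PACT KO, and *CD79A* had 1 to 7 reads. *VWF* was detected among 3 endothelial genes, whose summed level was 24.3 to 27.0 CPM in LNCaP parental against 15.6 to 17.7 in PACT KO with *PECAM1* and *CDH5* at 0. Of 6 fibroblast genes, *COL1A1* and *COL3A1* were detected, with a sum of 33.0 to 37.6 CPM against 44.6 to 50.1 and *COL1A2* at 0. Of 4 neuroendocrine genes, *ENO2* and *SYP* were detected, with a sum of 21.8 to 24.0 CPM against 22.1 to 22.7. Whether these markers had a part in the kallikrein values was not tested.

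In the RefSeq annotation of GRCh38.p14 the cluster of 15 KLK genes runs over 265.1 kb, from *KLK1* to *KLK14* (chr19:50819146-51084210). *KLK3* (chr19:50854915-50860764) and *KLK2* (chr19:50873439-50880567) lie next to each other on the plus strand. *KLK15* (chr19:50825289-50833574) and *KLK4* (chr19:50906351-50911395) flank this pair on the minus strand, as does the transcribed pseudogene *KLKP1* between *KLK2* and *KLK4*. The sequences upstream of *KLK3*, *KLK2* and *KLK4* are shown because these 3 genes carried the reads of the locus and differed in how much they changed. Each is the 250 bases before the RefSeq start, at chr19:50854665-50854914 (plus strand), chr19:50873189-50873438 (plus strand) and chr19:50911396-50911645 (minus strand), written 5′ to 3′ along the gene. Capitals mark matches to the 15-letter pattern NGNACA, any 3 letters and NGTNCN, a relaxed form of the steroid hormone response element, searched on both strands.
KLK3: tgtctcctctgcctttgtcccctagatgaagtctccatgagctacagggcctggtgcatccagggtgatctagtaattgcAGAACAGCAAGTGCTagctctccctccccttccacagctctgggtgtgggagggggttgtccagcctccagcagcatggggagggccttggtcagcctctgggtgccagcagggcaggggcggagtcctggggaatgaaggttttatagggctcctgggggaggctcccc
KLK2: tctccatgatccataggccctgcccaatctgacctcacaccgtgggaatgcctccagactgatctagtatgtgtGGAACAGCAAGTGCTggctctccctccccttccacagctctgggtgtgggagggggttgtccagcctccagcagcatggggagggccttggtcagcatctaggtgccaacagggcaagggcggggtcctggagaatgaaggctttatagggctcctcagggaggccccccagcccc
KLK4: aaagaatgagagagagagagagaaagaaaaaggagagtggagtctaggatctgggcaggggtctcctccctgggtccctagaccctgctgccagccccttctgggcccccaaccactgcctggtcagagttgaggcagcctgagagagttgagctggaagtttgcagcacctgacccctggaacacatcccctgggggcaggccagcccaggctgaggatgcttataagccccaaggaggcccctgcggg

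The *KLK3* and *KLK2* windows were 79.3% identical when aligned (211 of 266 columns), against 49.6% for *KLK3* with *KLK4* and 50.2% for *KLK2* with *KLK4*. The 15-letter pattern occurred at positions -170 to -156 before the *KLK3* start and -176 to -162 before the *KLK2* start. It was in no other kallikrein window of the RefSeq promoter table, which has no entry for *KLK1* and *KLK8*. The 2 matches differ by A1G, counted from 1 at the 5′ end of the match and with the base of *KLK3* given first. Of 34943 promoter windows of this length, 623 (1.78%) held the pattern. The letters TTTATA, a variant of the TATA box that does not overlap the pattern, were at -28 to -23 in *KLK3* and -34 to -29 in *KLK2*. *KLK15*, which did not pass the test, held their reverse complement at -30 to -25, so that its own strand reads TATAAA there. Of all windows, 10.8% held TTTATA on either strand. The *KLK4* window held neither the pattern nor TTTATA on either strand. Its letters ttataa close to the start resemble them but were not among the letters searched. These are matches of letters, and no binding was measured. Sequence outside the 250-base windows was not searched, and whether these letters had a part in the changes was not tested.

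Of the 10 kallikreins, 5 had more than 3 reads in every library of both groups and entered the test of 14462 genes. A gene was called differentially expressed at an FDR under 0.01 and a fold change of at least 1.5. Of these 5, 2 (*KLK3* and *KLK2*) were called lower in PACT KO, against 2.65% of all genes tested, and 0 were called higher, against 3.07%. At an unadjusted p under 0.05, and by DESeq2 and limma-voom at the same thresholds, 0 were higher as well. At the FDR alone, *KLK4* was added to give 3 lower (18.8% of all genes) and 0 higher (15.3%). The median log2 fold change of the 5 tested kallikreins was -0.47, against 0.0004 for all genes tested.

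*KLK3* (NCBI Gene 354) encodes PSA, the chymotrypsin-like enzyme measured in blood as a marker of prostate cancer. It had 1513, 1325 and 1569 reads in the LNCaP parental libraries and 293, 261 and 226 in PACT KO. Scaled to library size these were 66.6, 61.3 and 63.4 CPM against 11.9, 10.7 and 11.2. Every PACT KO library was far under every LNCaP parental library, and the spread within each group was small beside the gap. The mean went from 63.8 ± 2.70 to 11.3 ± 0.568 CPM (SD, n = 3 each), so that PACT KO held 17.7% of the LNCaP parental level. The log2 fold change was -2.50 (SE 0.06, 95% interval -2.61 to -2.39, FDR 2.55e-30 by edgeR). Its fall ranked 47 by fold change among the 14462 genes tested.

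*KLK2* (NCBI Gene 3817) encodes a trypsin-like enzyme that is the closest relative of PSA. Its reads were 648, 548 and 665 in LNCaP parental and 347, 356 and 333 in PACT KO. In CPM these were 28.5, 25.3 and 26.9 against 14.04, 14.6 and 16.5. The groups did not overlap, and the gap was smaller than that of *KLK3*. The mean went from 26.9 ± 1.60 to 15.1 ± 1.26 CPM (SD, n = 3 each), and the log2 fold change was -0.84 (SE 0.07, 95% interval -0.99 to -0.69, FDR 3.66e-12 by edgeR). Because the pair is similar in sequence, reads could be split between them or dropped. Of the 2556 different 50-base stretches in the GENCODE 29 transcripts of *KLK3*, 11 (0.43%) also occurred in *KLK2*, and 0 stretches of 100 bases did. Of the 3631 stretches of 50 bases in *KLK2*, 31 (0.854%) occurred in another gene, 11 of them in *KLK3*, and 0 of 100 bases did. Only identical stretches were counted, so reads that align with mismatches could be shared more often. With the reads of the pair summed into 1 gene the log2 fold change was -1.79 (SE 0.04, FDR 1.22e-28 by edgeR). The sum does not depend on how reads were split, but it does not restore dropped reads or test the difference between the 2 genes.

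*KLK4* (NCBI Gene 9622), known also for breaking down the matrix of tooth enamel, had 2723, 2605 and 2857 reads in LNCaP parental and 2093, 1989 and 1824 in PACT KO. In CPM these were 119.9, 120.5 and 115.4 against 84.7, 81.8 and 90.2. The 3 libraries of each group lay close together and the groups did not overlap. The log2 fold change of -0.47 (SE 0.03, 95% interval -0.54 to -0.40, FDR 3.84e-14 by edgeR) passed the FDR but not the 1.5-fold threshold.

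*KLK15* (NCBI Gene 55554) encodes another enzyme that can activate the PSA precursor in the test tube. It had 29, 29 and 46 reads in LNCaP parental and 30, 30 and 24 in PACT KO, or 1.28, 1.34 and 1.86 CPM against 1.21, 1.23 and 1.19. The groups did not overlap in CPM, but 2 of the LNCaP parental libraries lay just above PACT KO. The log2 fold change was -0.31 (SE 0.23, 95% interval -0.77 to 0.15, FDR 0.279 by edgeR), and without LNCaP parental replicate 3 it was -0.11. An antisense gene of GENCODE 29 overlaps *KLK15*, and without knowledge of the strand used in counting the reads of the 2 cannot be told apart.

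*KLK14* (NCBI Gene 43847), a trypsin-like enzyme of the epidermis, had 17, 17 and 16 reads in LNCaP parental and 31, 18 and 19 in PACT KO. The groups overlapped in CPM (0.749, 0.786 and 0.646 against 1.25, 0.740 and 0.940). The log2 fold change was 0.44 (SE 0.30, 95% interval -0.17 to 1.04, FDR 0.243 by edgeR), and without PACT KO replicate 1 it was 0.20. With 16 to 46 reads per library neither gene's interval excluded 0, and that of *KLK15* included the change seen in *KLK4*.

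Counting *KLK15*, the LNCaP parental and PACT KO libraries of 4 of the 5 tested kallikreins did not overlap, all lower in PACT KO, against 27.2% of all genes tested that did not overlap in this direction. In the other direction it was 0 of 5, against 25.1%.

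**Figure D1:**
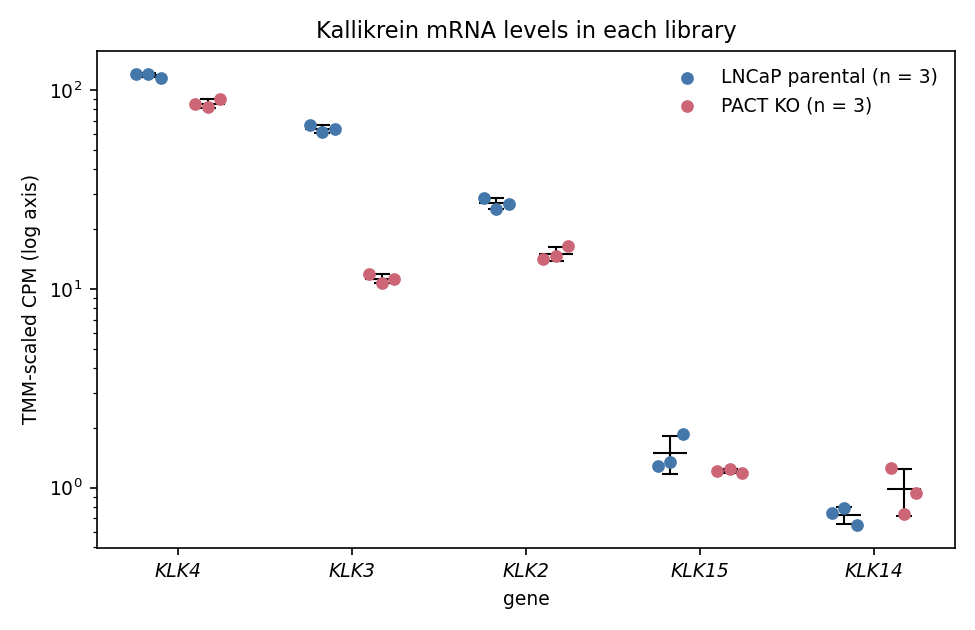
CPM (log axis) of the 5 tested kallikreins in each library, with points for libraries and bars for the mean and SD of 3 LNCaP parental and 3 PACT KO libraries. *KLK3* dropped from 63.8 to 11.3 CPM, *KLK2* and *KLK4* by less, and *KLK14* and *KLK15* lay near 1 CPM in both groups.

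The 5 remaining kallikreins were not detected, taking 3 reads per library as the limit that a count of 0 allows, or 0.12 to 0.151 CPM at these depths for counting error alone. *KLK1*, the tissue kallikrein that releases kinins from kininogen, had 1, 1 and 2 reads in LNCaP parental and 0 in every PACT KO library. *KLK5*, a trypsin-like enzyme of skin shedding, had 1 read in 1 LNCaP parental library and 2 in 1 PACT KO library. *KLK10* had 1 read in all, in PACT KO, and *KLK11* had 1 read in all, in LNCaP parental. *KLK12* had 2 reads in 1 LNCaP parental library and 1 in each of 2 PACT KO libraries. No fold change is given for these genes, since both groups were at or under the limit.

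Levels of different genes were compared per kilobase of transcript, using either the union of exons or the longest coding transcript of GENCODE 29. In LNCaP parental cells *KLK4* was highest at 88.0 CPM per kb by both lengths, followed by *KLK3* (27.5 by union, 38.3 by longest transcript) and *KLK2* (7.62 and 8.91). *KLK15* (1.01 and 1.07) and *KLK14* (0.611 and 0.642) came far below, and no library of 1 overlapped those of the other. In PACT KO *KLK4* stayed highest at 63.5 CPM per kb. *KLK3* and *KLK2* drew close there, at 4.85 and 4.26 by union, where their libraries overlapped (4.62 to 5.11 for *KLK3* and 3.98 to 4.66 for *KLK2*), and at 6.76 and 4.99 by longest transcript, where they did not. *KLK15* (0.818 by union) and *KLK14* (0.823) could not be ordered in PACT KO.

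The make-up of the kallikrein reads differed between the groups. The 10 genes together took 4934, 4525 and 5156 reads in LNCaP parental and 2794, 2655 and 2430 in PACT KO, or 209.3 ± 4.02 and 115.3 ± 6.13 as CPM over the reads on genes (SD, n = 3 each). *KLK4* made up 56.1% ± 1.32 of these reads in LNCaP parental and 75.0% ± 0.0839 in PACT KO, while *KLK3* made up 30.1% ± 0.739 and 9.87% ± 0.596. The share of *KLK2* was 12.7% ± 0.535 and 13.2% ± 0.671, with overlapping libraries (exact permutation test, 2-sided, p = 0.4). For the total and for the shares of *KLK3* and *KLK4* the groups did not overlap, and p was 0.1 in the same exact permutation test, the smallest that 3 libraries against 3 allow. In bulk RNA, fewer cells making a transcript and less transcript per cell cannot be told apart.

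**Figure D2:**
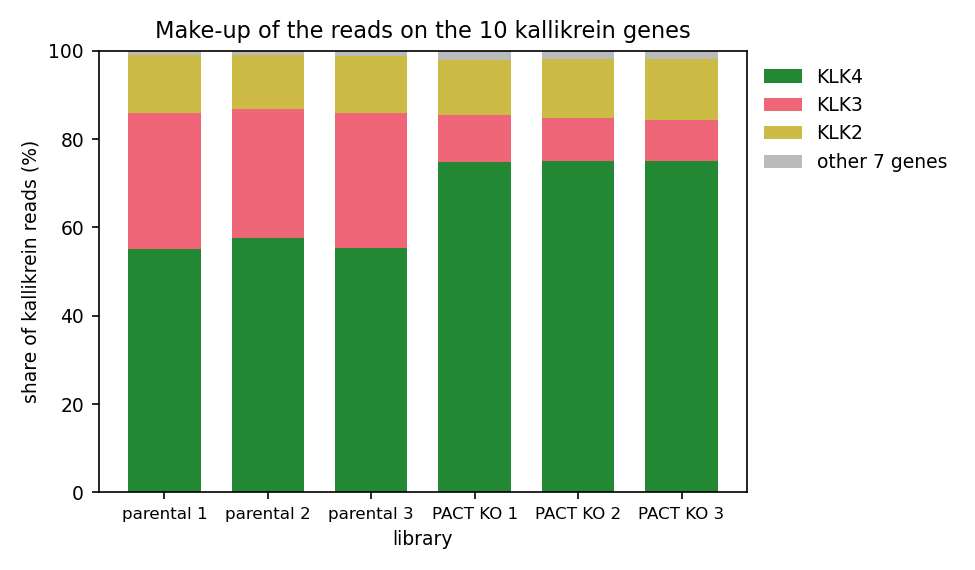
Share of the reads on the 10 kallikreins (percent, stacked to 100) taken by *KLK4*, *KLK3*, *KLK2* and the other 7 genes in each of the 6 libraries. The *KLK3* band narrows from about 30.1% in LNCaP parental to 9.87% in PACT KO, while the *KLK2* band stays near 13%.

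Ratios within a library, which do not depend on scaling between libraries, were used to ask whether the 3 abundant kallikreins changed by unlike amounts. The log2 ratio of *KLK3* to *KLK2* reads was 1.22, 1.27 and 1.24 in LNCaP parental and -0.24, -0.45 and -0.56 in PACT KO. There were thus about 2.37 *KLK3* reads for each *KLK2* read in LNCaP parental and 0.750 in PACT KO. The *KLK3* to *KLK4* log2 ratio went from -0.90 ± 0.07 to -2.92 ± 0.09, and the *KLK2* to *KLK4* log2 ratio from -2.14 ± 0.09 to -2.51 ± 0.07 (SD, n = 3 each). The differences between the groups were -1.66, -2.03 and -0.37 on the log2 scale. Each ratio was separated between the groups without overlap, and each had p = 0.1 in a 2-sided exact permutation test (0.1 after Benjamini-Hochberg adjustment over the 3 ratios), so a p under 0.05 could not be reached.

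**Figure D3:**
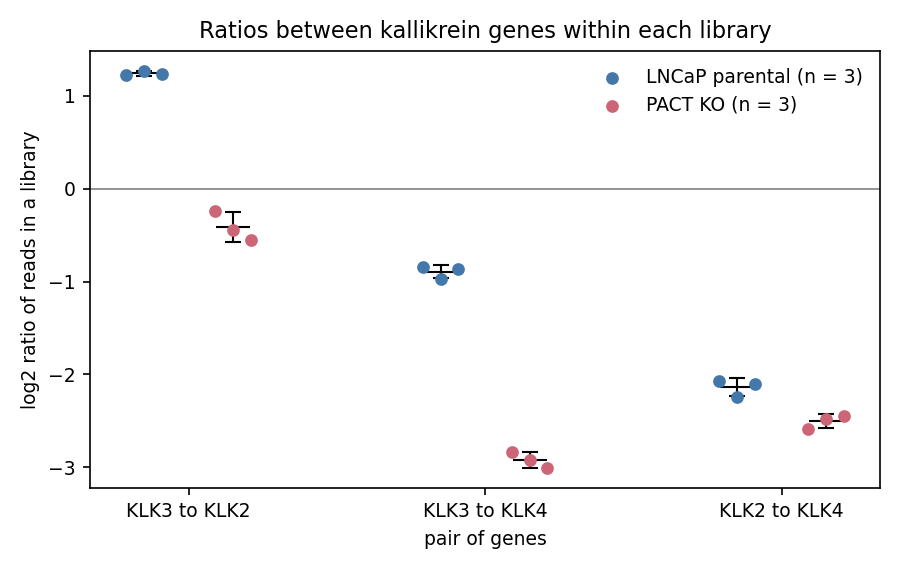
Log2 ratio of reads for *KLK3* to *KLK2*, *KLK3* to *KLK4* and *KLK2* to *KLK4* in each library, with points for libraries and bars for the mean and SD of 3 per group. The first ratio crosses 0, from 1.24 in LNCaP parental to -0.42 in PACT KO, and the last shifts least, by -0.37.

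Of the 6 other genes of the locus, *KLKP1* (NCBI Gene 606293) alone was detected. Its reads were 119, 102 and 120 in LNCaP parental and 65, 51 and 72 in PACT KO, with a log2 fold change of -0.85 (SE 0.14, 95% interval -1.15 to -0.56, FDR 6.25e-06 by edgeR), called lower. *KLK8*, *KLK9* and *KLK13* had 0 reads in every library, and *KLK6* and *KLK7* had at most 2. The pseudogene shares no identical stretch of 50 bases with another gene in the GENCODE 29 transcripts.

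Outside the cluster, 8 protein-coding genes on each side were examined, of which 15 were in the file and 7 were tested. Of these, 0 were called lower, against 2.65% of all genes tested, and 2 were called higher, against 3.07%. The 2 were *C19orf81* (log2 fold change 1.35, SE 0.34, FDR 0.00119 by edgeR) and *SYT3*, a synaptotagmin gene (0.92, SE 0.24, FDR 0.00216). Their positions overlap, so that reads could be shared, and both had few reads. *C19orf81* had 7, 9 and 12 in LNCaP parental and 25, 22 and 25 in PACT KO. *SYT3* had 20, 21 and 17 against 38, 35 and 37. *ETFB*, which encodes an electron transfer flavoprotein subunit, passed the FDR with a log2 fold change of -0.22 (SE 0.03, FDR 5.22e-08). *CD33*, a sialic acid-binding receptor gene (-0.62, FDR 0.0885), and *CTU1*, a tRNA thiolation gene (-0.28, FDR 0.114), did not pass. The median of the 7 was -0.04.

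**Figure D4:**
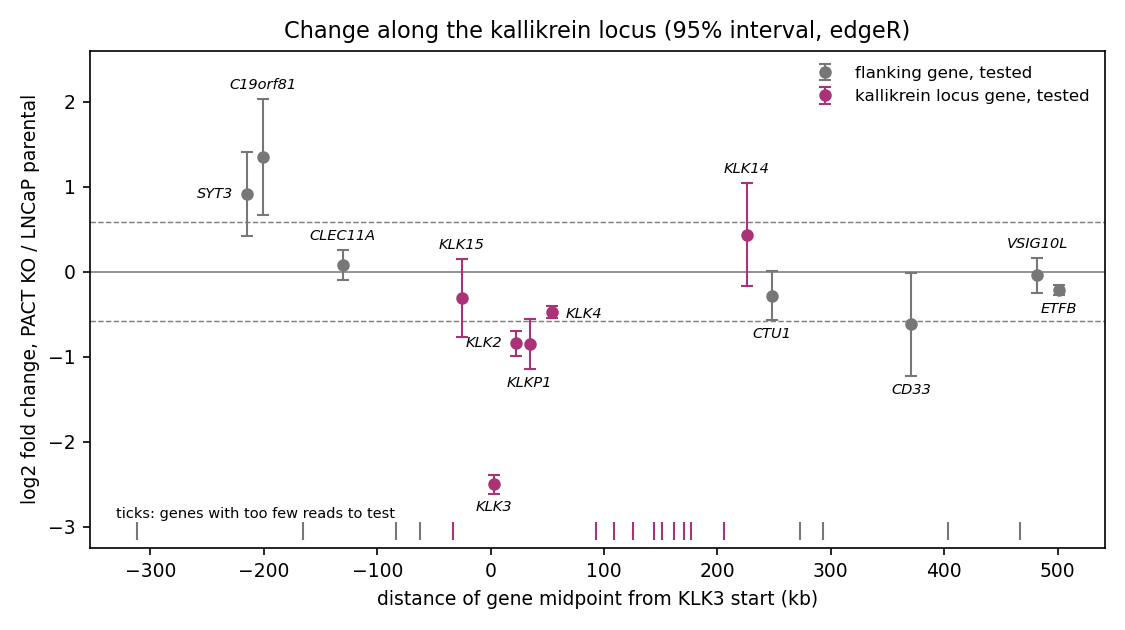
Log2 fold change of PACT KO over LNCaP parental (95% interval, edgeR) against the distance of each gene's midpoint from the *KLK3* start in kb, for tested kallikrein locus genes and flanking genes, with dashed lines at 1.5-fold and ticks for genes with too few reads. *KLK3* lies lowest at -2.50, *KLK2*, *KLKP1* and *KLK4* lie between -0.85 and -0.47, and the flanking genes *SYT3* and *C19orf81* lie above 0.

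Regulators known from kallikrein genes were measured as a list of 10 transcription factors and coregulators, all tested. None was called at 1.5-fold in either direction, against 2.65% lower and 3.07% higher of all genes. At the FDR alone 3 were lower (18.8% of all genes) and 4 higher (15.3%), with a list median of 0.08. *GREB1* (log2 fold change 0.34, FDR 3.39e-07 by edgeR) and *PIAS1* (0.29, FDR 3.23e-06), both coregulators of steroid receptors, and the coactivator *NCOA3* (0.15, FDR 0.00272) were higher, and the coactivator *NCOA1* (-0.17, FDR 4.2e-05) and the histone demethylase gene *KDM1A* (-0.11, FDR 0.00354) were lower.

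Of 13 genes of kallikrein inhibitors, 4 were tested and none was called, where 2.65% of all genes tested were called lower and 3.07% higher. *SPINT2*, a Kunitz-type inhibitor, was lower (log2 fold change -0.17, FDR 2.75e-06 by edgeR, 431.6 to 383.7 CPM), and the serpin *SERPINB6* (0.13, FDR 1.5e-04) and *SPINT1* (0.09, FDR 0.00877) were higher. *SERPINA1* did not pass (0.19, FDR 0.665), and the list median was 0.11. *SERPINA3*, whose product binds PSA in serum, and *SERPINA5* had too few reads to test.

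Of 16 genes of kallikrein substrates and receptors, 6 were tested. None was called, against 2.65% lower and 3.07% higher of all genes tested. *F2R*, a protease-activated receptor gene, was higher (log2 fold change 0.35, SE 0.04, FDR 8.79e-09 by edgeR) and *FN1*, fibronectin, was lower (-0.11, FDR 8.86e-04). *IGFBP3*, whose product binds insulin-like growth factors and is cut by PSA (-0.28, FDR 0.0324), the urokinase receptor gene *PLAUR* (0.14, FDR 0.723) and *F2RL1*, another protease-activated receptor gene (0.02, FDR 0.775), did not pass. *SEMG1* and *SEMG2*, the semenogelins, and *PLAU* and *DSG1* had 0 reads in every library, and the list median was 0.04.

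The genes whose centred log2 CPM profile over the 6 libraries lay closest to that of each abundant kallikrein were sought among 13175 tested genes averaging 1 CPM or more, by root mean square difference. For *KLK3* they were *MAGEC1* (0.11), *RIPOR2* (0.20), *HENMT1* (0.20), *TLL1* (0.21) and *LINC01029* (0.22). For *KLK2* they were *MYBL2* (0.05), *PLK1* (0.06), *RRM2* (0.07), *HSD17B12* (0.07) and *PKMYT1* (0.07). For *KLK4* they were *IMPA2* (0.02), *CDT1* (0.02), *LBR* (0.03), *MCM2* (0.03) and *CDC25B* (0.03). With 3 libraries per group, the profile is mostly the difference between the groups, so that a gene of like change in log2 CPM ranks high. The fitted log2 fold changes could differ more. They were -3.01 (SE 0.33) for *MAGEC1*, -2.70 for *RIPOR2* and -2.83 for *LINC01029*, against -2.50 for *KLK3*. These 3 genes were low in PACT KO, at means of 0.215, 0.600 and 0.732 CPM. *HENMT1* (-2.46) and *TLL1* (-2.35) lay nearer to *KLK3*.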

How the data were processed

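RNA-seq read counts of 6 libraries (3 LNCaP parental, 3 PACT KO) were used as deposited by the authors: whole numbers of reads per NCBI Gene number, not normalized. The submitters' processing notes name bcl2fastq 2.20.0.422, STAR 2.5.3a, StringTie 1.3.3, featureCounts 1.5.3 and hg38. The annotation, the use of strand, the handling of multiply mapped reads and the read length are not given in the sources used here. A row without a gene number (0.0688% to 0.0708% of reads) was left out. Symbols came from RefSeq for 27540 of 29806 gene numbers.

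Genes were kept with filterByExpr, scaled by TMM and tested 2-sided with glmQLFit and glmQLFTest in edgeR 4.0.16 (R 4.3.3), with Benjamini-Hochberg adjustment over 14462 genes. CPM use TMM factors. The code was tested on simulated data. Alternatives were DESeq2 1.42.0, limma-voom (limma 3.58.1), other scalings, filters and thresholds, a replicate block, and leaving out each library. Besides the 10 members, values are given for at most the 5 genes of each list with the smallest p and the 5 genes most like *KLK3*, *KLK2* and *KLK4*. Members and lists were chosen with earlier results of these data known. At these depths 3 reads are 0.12 to 0.151 CPM. Some genes of the lists are not reported here.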

Additional observations from a re-analysis of the deposited data

How the results depend on the processing

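The log2 fold changes of *KLK2*, *KLK3*, *KLK4*, *KLK14*, *KLK15* and of *KLK2* plus *KLK3* kept their direction and their side of the FDR threshold under every alternative that gave a value. *KLK14* could not be tested with a filter of over 1 CPM in 3 libraries. Across scalings, filters and tests *KLK3* ranged from -2.50 to -2.47, *KLK2* from -0.85 to -0.81 and *KLK4* from -0.47 to -0.44, and leaving out 1 library gave -2.54 to -2.46, -0.90 to -0.79 and -0.50 to -0.44. Leaving out 1 library gave 0.20 to 0.61 for *KLK14* and -0.41 to -0.11 for *KLK15*. At a minimum of 2-fold, 1 kallikrein (*KLK3*) was called lower, with 175 genes lower and 147 higher. Without a minimum fold, an FDR under 0.01 gave 2726 lower and 2214 higher genes and 3 lower kallikreins, and an FDR under 0.05 gave 3451 and 3083 genes. Deviations of same-numbered dishes from their group means had correlations of -0.27, 0.19 and -0.38 over 10369 genes. Dishes of unlike number had -0.42 to 0.54. With 3 libraries per group these values cannot settle whether the numbers pair the samples. With the replicate block, *KLK3* was -2.50, *KLK2* -0.84, *KLK4* -0.47, *KLK14* 0.42 and *KLK15* -0.29, the summed pair was -1.79, and 374 genes were lower and 426 higher. The low counts of *KLK14* and *KLK15* limit what can be seen in them.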

Other observations

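Of 10 genes of other secreted products of prostate luminal cells, 5 were tested. None was called at 1.5-fold, against 2.65% lower and 3.07% higher of all genes tested. *CPE*, carboxypeptidase E, was higher (log2 fold change 0.31, FDR 3.63e-10 by edgeR) and *ACP3*, prostatic acid phosphatase, was lower (-0.16, FDR 0.00218). *AZGP1* (-0.15, FDR 0.269), *SPON2* (-0.03, FDR 0.413) and *CRISP3* (-0.06, FDR 0.878) did not pass, and the list median was -0.06.

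Of 8 membrane-anchored serine proteases and their relatives, 7 were tested. Of these, 1 was called lower, against 2.65% of all genes tested, and 0 higher, against 3.07%. At the FDR alone 3 were lower (18.8% of all genes) and 1 higher (15.3%). *TMPRSS11E* was called lower, with 57, 53 and 65 reads in LNCaP parental and 24, 29 and 27 in PACT KO (log2 fold change -1.13, SE 0.19, FDR 6.12e-06 by edgeR). *PRSS8*, prostasin, was higher (0.37, FDR 2.34e-12), and *HPN*, hepsin (-0.16, FDR 3.57e-05), and *ST14*, matriptase (-0.12, FDR 6.15e-04), were lower without reaching 1.5-fold. *TMPRSS13* did not pass (-0.19, FDR 0.195), and the list median was -0.12.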
